A study of Homo sapiens with 6 samples.

Results

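The cytosolic ribosomal proteins are the proteins that, with 4 ribosomal RNAs, make up the ribosome of the cytoplasm. Their genes were chosen by symbol, as RPL or RPS followed by a number and at most 1 of the letters A, X or L, together with RPLP0, RPLP1, RPLP2 and RPSA. Of the 60708 genes in the deposited table, 81 met this rule, 49 of the large subunit and 32 of the small subunit.

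Caki-1 is a human clear cell renal carcinoma line that expresses wild-type VHL, a tumor suppressor often lost in kidney cancer. The study compared 3 samples of VC cells, which are WT Caki-1 cells infected with the empty Lenti-CRISPR vector, with 3 samples of VHL-KO cells, in which a guide RNA and Cas9 carried by the same type of lentivirus had disrupted VHL. The knockout cells were clonal, selected with puromycin and screened by immunoblot, and how many clones gave the 3 samples was not given in the sources used here. A difference between the groups can therefore come from the loss of VHL or from the clone that was picked, and these cannot be told apart.

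Each ribosome carries a single copy of nearly every one of these proteins, the acidic stalk proteins being the main exception, so their mRNAs are needed in similar amounts and are among the most abundant of a growing cell. Most begin with a cytosine followed by a run of pyrimidines, the terminal oligopyrimidine (TOP) start, through which LARP1 and the mTOR pathway control their translation. VHL marks the HIFα proteins for degradation, and the HIF pathway dampens mTOR activity in hypoxia through genes such as DDIT4.

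Total counts ranged from 22628246 to 34881739 per sample, and the middle value was 31789923 for VC and 22805385 for VHL-KO. For a gene listed at 0, a 95% interval reaches up to 3 counts. In CPM (counts scaled to a common library total) this was 0.0860 in the deepest and 0.133 CPM in the shallowest sample. This limit covers counting error alone. VHL itself, on chromosome 3 of GRCh38 from 10141778 to 10153667, was read 1454, 1124 and 1522 times in VC libraries 1 to 3 and 929, 657 and 650 times in VHL-KO libraries 1 to 3. After TMM normalization, which corrects for differences in library composition, it was at 42.6, 37.8 and 40.1 CPM in VC and 34.8, 30.4 and 30.5 CPM in VHL-KO cells. All VHL-KO samples were below all VC samples (log2 fold change -0.33, standard error 0.11, edgeR adjusted p = 0.0109), a call that was lost with upper quartile factors, with GC and length offsets of the transcript, with offsets from GC content alone, and without VC replicate 1 or VHL-KO replicate 2. Over the alternatives VHL ranged from -0.81, called lower with offsets from the coding sequence, to -0.03 with GC and length offsets. A small deletion or insertion changes the protein and need not change the mRNA level, so these values do not check the knockout. Nothing in the sources states that replicates were separate cultures, so the p-values given here measure the spread between these 6 samples alone.

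Most kidney and renal carcinoma markers were present. PAX8, the renal lineage factor, was read 15025, 13630 and 14580 times in the VC libraries and 16327, 12971 and 13414 times in the VHL-KO libraries, and the 10 markers summed to 8624, 9329 and 8575 CPM in the VC libraries against 8174, 7899.7 and 8213 in the VHL-KO libraries by library total, with VIM as the most abundant. After TMM normalization the sums were 8025, 8932 and 7875 CPM and 8913, 8345 and 8712 CPM, so which group had the higher mean depended on the scaling. Of 7 tested, 5 were higher and 0 lower by edgeR, among them PAX8 (0.52 ± 0.09, log2 fold change ± standard error), beside 28.5% and 31.2% of all genes tested. PAX2 and LRP2 were at 0 in every sample, and AQP1 had at most 2 counts. CA9, a HIF target, was read 0, 0 and 2 times in the VC libraries against 288, 247 and 233 times in the VHL-KO libraries, and CDH16 rose from 6.75 ± 0.988 CPM in VC to 72.2 ± 1.78 CPM in VHL-KO cells (means with SD of 3 libraries; log2 fold change 3.42, standard error 0.12, edgeR adjusted p = 6.92e-17). Of 10 markers of leukocytes, endothelium and fibroblasts, CD3E and LUM were at 0 throughout and PECAM1 was the most abundant, with 1, 5 and 0 counts in the VC libraries against 14, 7 and 9 in the VHL-KO libraries. It was the only 1 of the 10 with enough reads to be tested (log2 fold change 2.73, standard error 0.90, edgeR adjusted p = 0.0117). The 4 leukocyte markers summed to at most 0.398 CPM, the 3 endothelial markers to at most 0.652 CPM and the 3 fibroblast markers to at most 0.0860 CPM in any sample.

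The TOP start was visible in the reference sequence of many members. RefSeq's promoter table (GRCh38.p14) matched 64 of the 81 symbols with 79 entries, each 300 bases long with 250 of them before the annotated start. A cytosine at the start base followed by 4 bases that were each C or T was found in 46 of the 79 entries (58.2%) and in 1429 of all 35116 entries of the table (4.07%). The windows printed next run from 10 bases before to 20 bases from the start on, with the pyrimidine run that begins at the start base in capitals. They show members with large rises, followed by members near 0 or below, to let the starts be compared with the values given later.
RPL34 (chr4:108620566-108620595, plus strand): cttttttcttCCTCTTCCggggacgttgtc
RPL28 (chr19:55385922-55385951, plus strand): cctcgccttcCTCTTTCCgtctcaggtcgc
RPL26 (chr17:8383174-8383203, minus strand): gcgtgtagttCTCTTCCCTTTTgcggccat
RPL13A (chr19:49487598-49487627, plus strand): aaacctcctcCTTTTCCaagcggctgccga
RPS3A (chr4:151099618-151099647, plus strand): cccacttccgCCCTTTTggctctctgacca
RPL13 (chr16:89560647-89560676, plus strand): tgctatcatcCCagagtgcattgcggggcc
RPS28 (chr19:8321486-8321515, plus strand): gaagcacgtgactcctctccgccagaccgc
RPLP0 (chr12:120201092-120201121, minus strand): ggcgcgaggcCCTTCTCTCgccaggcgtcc
RPS7 (chr2:3575250-3575279, plus strand): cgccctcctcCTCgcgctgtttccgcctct
RPL17 (chr18:49492446-49492475, minus strand): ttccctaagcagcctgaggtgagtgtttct
RPL34, RPL28, RPL26, RPL13A and RPS3A begin with runs of 8, 8, 12, 7 and 7 pyrimidines at the annotated start. So does RPLP0, with a run of 9, although it did not pass the edgeR test given later. In RPL13, RPS28, RPS7 and RPL17 the annotated start base was followed by a shorter run or none, and the start used in Caki-1 cells was not measured.

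Of the members with an entry, 63 were tested, and the first entry of each was used. The 42 members with the TOP start had a median log2 fold change of 0.52, with 36 called higher and 0 lower, by edgeR. The 21 members without it at the annotated base had a median of 0.38, with 13 called higher and 1 lower. Of all genes tested, 28.5% were called higher and 31.2% lower. The ranges of these members overlapped, from -0.03 to 1.06 and from -0.66 to 0.96. Elsewhere in the 300-base windows, searched on both strands, the ETS family motif CCGGAAG was in 34.2% of the members' entries and 10.3% of all entries. The HIF core motif ACGTG was in 31.6% and 21.4%, and the E-box CACGTG, which contains ACGTG, in 5.06% and 7.26%. A match of letters is not evidence that a factor binds there.

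The first question was whether ribosomal protein mRNAs took a different part of the transcriptome in the absence of VHL. The large subunit genes together took 4.85, 4.84 and 4.65% of the VC libraries and 6.20, 6.02 and 5.52% of the VHL-KO libraries. The small subunit genes took 3.05, 3.08 and 2.94% of the VC libraries and 3.55, 3.56 and 3.24% of the VHL-KO libraries. For both subunits every VHL-KO sample was above every VC sample, and VHL-KO replicate 3 was the lowest of its group. The means went from 4.78 ± 0.116% to 5.91 ± 0.353% for the large subunit and from 3.02 ± 0.0749% to 3.45 ± 0.182% for the small subunit (SD, n = 3 each), ratios of 1.24 and 1.14. A 95% Wilson interval of any of these shares reached at most 0.0121 percentage points to either side, far less than the spread between replicates. A share over chosen members gets no p-value here. In bulk RNA, fewer cells of a type and less RNA per cell cannot be told apart.

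The large subunit gained more than the small one. The ratio of large to small subunit counts was 1.59, 1.57 and 1.58 in the VC samples and 1.74, 1.69 and 1.70 in the VHL-KO samples, again without overlap, with means of 1.58 ± 0.0104 and 1.71 ± 0.0292. Other abundant RNAs moved in the same total: genes of the mitochondrial genome went from 6.87 ± 0.716% of counts to 10.2 ± 0.571%. With these left out of the total, the large subunit's share was 5.13% in VC and 6.58% in VHL-KO cells and the small subunit's 3.24% and 3.85%, so the difference was larger without them.

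**Figure D1:**
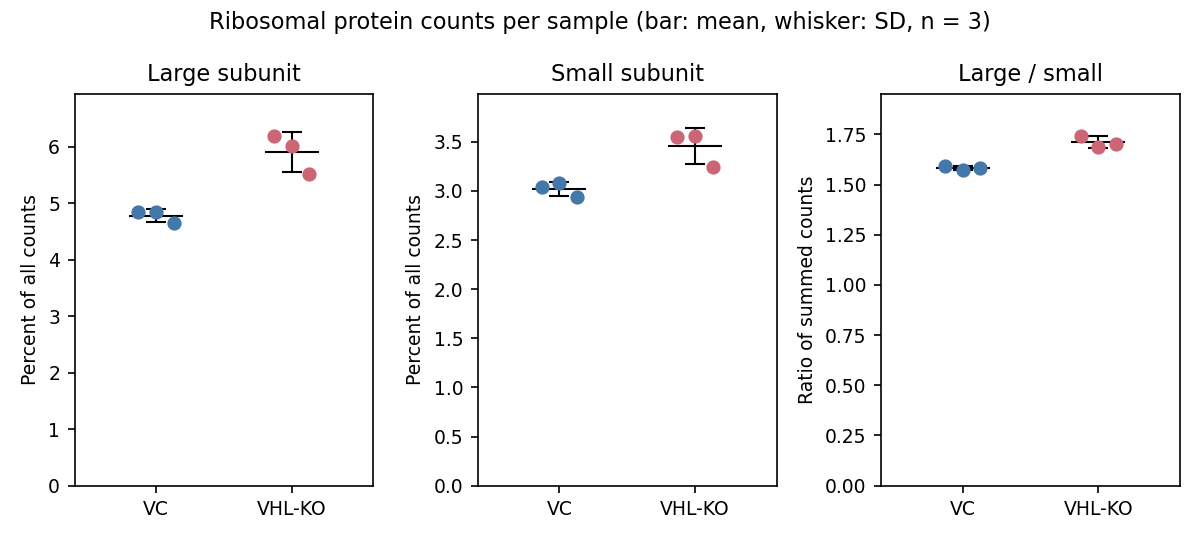
Share of all counts taken by large subunit and small subunit genes, in percent, and the ratio of their summed counts, for each of the 3 VC and 3 VHL-KO samples (points), with the group mean (bar) and SD (whisker). Every VHL-KO sample lies above every VC sample in each panel, the ratio going from a mean of 1.58 to 1.71.

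The gain was spread over many genes, in unequal parts. Taken as raw shares of all counts, 62 members had a larger mean share in VHL-KO cells and 17 a smaller one. RPL13 went from 0.190% to 0.324% of all counts, the largest difference, followed by RPL8, a protein next to the peptidyl transferase center, from 0.325% to 0.446%. With RPL13A, RPS3A and RPL37A, these 5 genes added 0.453 percentage points. The members with a larger share added 1.72 points together, and the family's net gain was 1.57 points. The largest loss of share was that of RPLP0, from 0.316% to 0.279%.

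Gene by gene, most members of both subunits rose relative to the other genes of the cell. The difference between the subunits was not tested. Of 17401 genes that reached 10 reads in some library, 4958 were higher and 5436 lower in VHL-KO cells at an adjusted p of 0.05, which is 28.5% and 31.2% of all genes tested (edgeR's quasi-likelihood F test, adjusted over all genes). Of the 47 tested large subunit genes, 38 were higher and 1 lower, and of the 32 small subunit genes 23 were higher and 0 lower. At an unadjusted p under 0.05 the fit had 1 large and 1 small subunit genes lower, and DESeq2 called 1 and 0 lower after adjustment. The median log2 fold change was 0.55 for the large subunit (quartiles 0.25 and 0.69) and 0.46 for the small subunit (quartiles 0.21 and 0.58), against -0.01 for all genes tested, whose quartiles were -0.63 and 0.66. In CPM, all VHL-KO samples were above all VC samples for 41 large and 24 small subunit genes, an arrangement that 31.2% of all genes tested showed. The reverse arrangement held for 2 and 2 members, and for 33.5% of all genes tested. RPL3L and RPL10L had 0 counts in all 6 samples and were not tested.

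How far the family moved depended on the scaling and on corrections for base composition and length, although both medians were above 0 in all 17 alternatives. Scaling by library size alone moved the median of all genes to -0.20, with 3763 higher and 6740 lower, and upper quartile factors moved it to 0.10. Relative to these medians the large subunit stood at 0.55 and 0.55 and the small subunit at 0.47 and 0.47. By library size alone, 30 large subunit genes were higher and 3 lower, and 19 small subunit genes were higher and 4 lower. Offsets that removed each library's trend with the GC content and length of transcripts brought the large subunit's median to 0.28, with 27 higher and 8 lower. The small subunit's median came to 0.02, with 14 higher and 10 lower. In this fit 5068 of the 17401 genes tested were higher and 5417 lower. Relative to the median of all genes the large subunit stood at 0.28 and the small subunit at 0.02, near the other genes. The annotated transcripts of some members are much longer than their coding sequence, up to 7573 bases. Offsets from the coding sequence, chosen after seeing the data, gave medians of 0.35 and 0.24. Such offsets also remove real change that follows length or GC content. Of the 61 members called higher, 32 were called higher in every one of the 17 alternatives, 20 of the large and 12 of the small subunit.

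**Figure D2:**
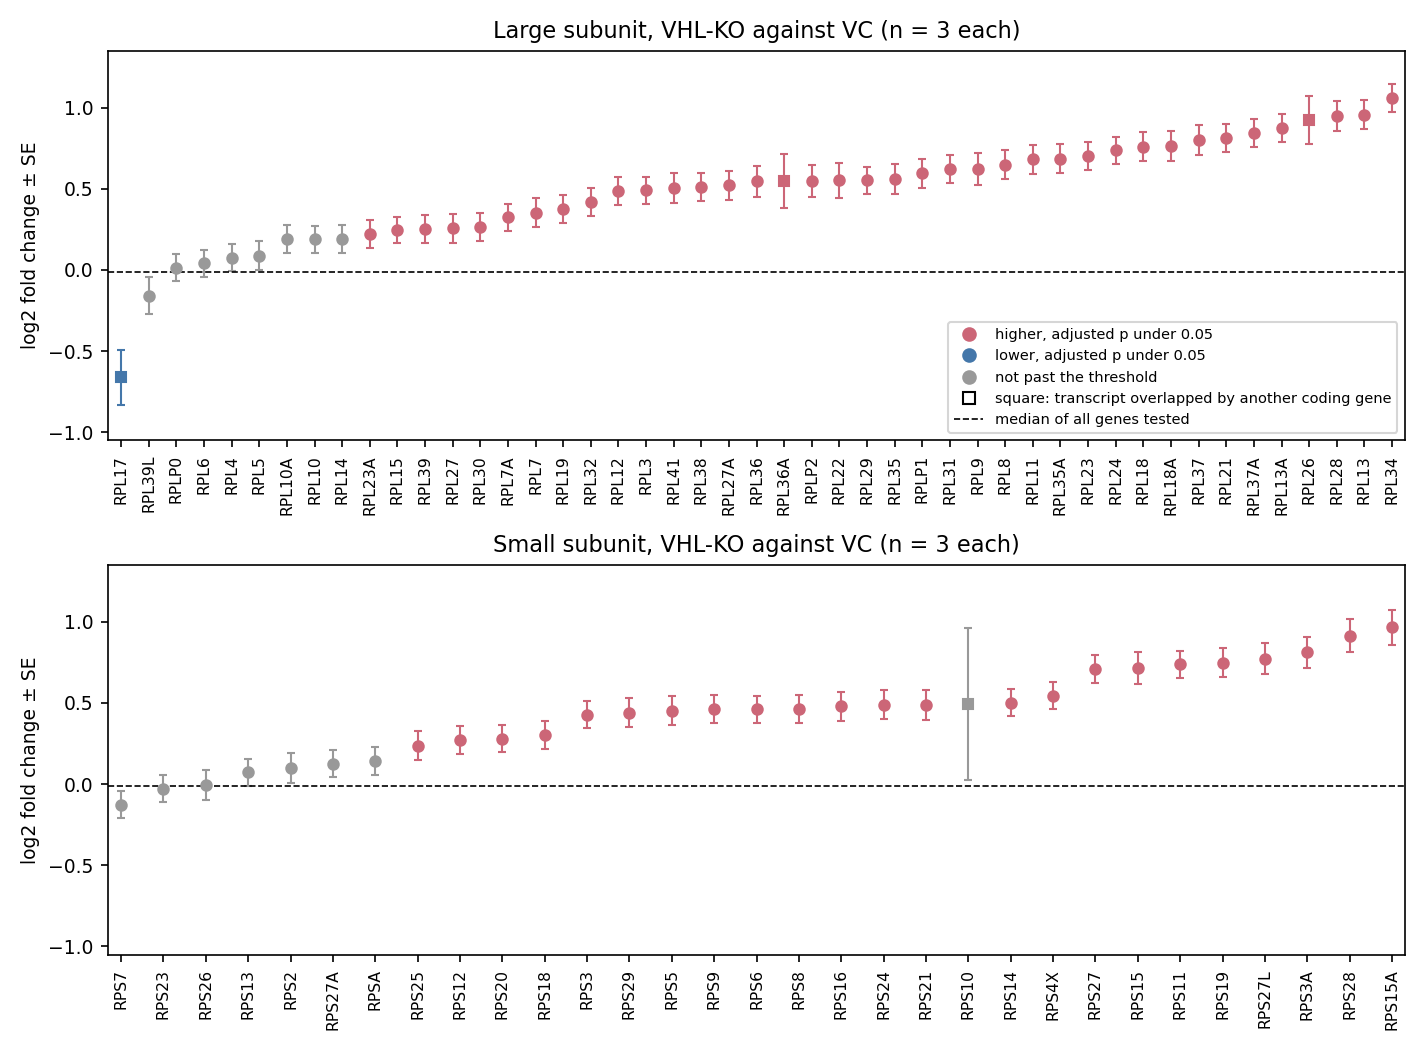
Log2 fold change of the large subunit and small subunit genes that are shown singly, VHL-KO against VC (n = 3 each), with its standard error, ordered by value. The dashed line is the median of all genes tested, -0.01, and squares are genes with over 40% of the transcript in exons of another coding gene; the values run from -0.66 for RPL17 to 1.06 for RPL34.

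**Figure D3:**
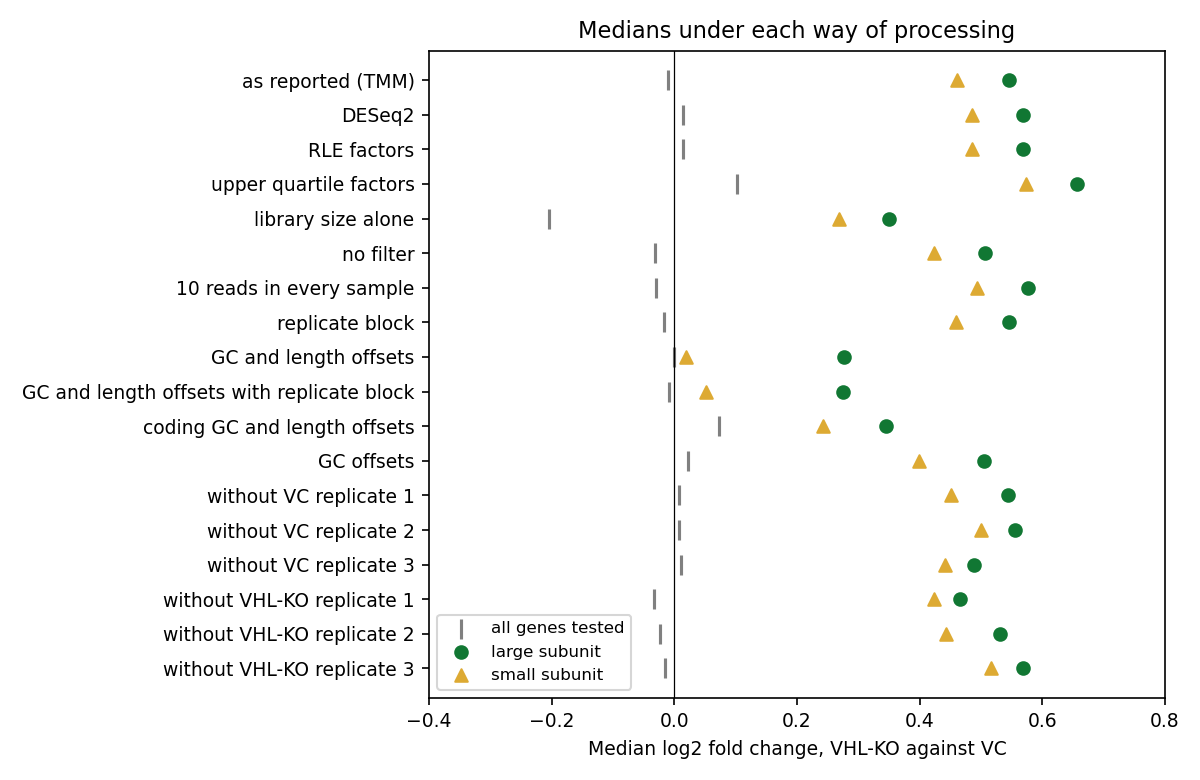
Median log2 fold change of the large subunit genes (circles), the small subunit genes (triangles) and all genes tested (ticks) as reported and under each of the 17 alternatives. Both subunit medians stay above 0, the small subunit's closest to it at 0.02 with GC and length offsets, while that of all genes ranges from -0.20 to 0.10.

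The members did not move by a common factor. To see which departed from the family, the same test was run with each library scaled to its summed member counts, so that a value of 0 means the same share of the ribosomal protein mRNA in both groups. On this scale 14.1% of all genes tested were higher and 47.9% lower, so more genes lost ground to the family than gained on it. Of the large subunit genes 15 were higher and 14 lower, and of the small subunit genes 8 were higher and 11 lower. Among members with a mean of at least 100 counts, the 2 largest departures upward were RPL34 (0.60 ± 0.08, log2 fold change ± standard error) and RPL13 (0.50 ± 0.07) in the large subunit and RPS15A (0.50 ± 0.12) and RPS28 (0.46 ± 0.08) in the small. Departures downward included RPL17 (-1.12 ± 0.18) and RPL39L (-0.62 ± 0.13) in the large subunit and RPS7 (-0.58 ± 0.07) in the small. These members kept their direction and stayed past the threshold in all 9 alternatives of this test. TMM factors computed over the members alone and offsets for GC content and length were among them.

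Levels can be compared between genes only per length, and here they were taken as the mean CPM over all 6 samples per kilobase of coding sequence. Leaving out 5 genes with over 40% of the transcript in exons of other coding genes, the median was 2310.3 CPM per kilobase for 44 large subunit genes (quartiles 1659 and 3594) and 1979.7 for 30 small subunit genes (quartiles 1374 and 2575). The highest of the large subunit were RPL41 (6753), whose coding sequence is only 75 bases long, RPL38 (5447), RPL8 (5068), RPLP1 (5039.8) and RPL37A (4549.7). Those of the small subunit were RPS20 (6076), RPS2 (4860.3), RPS28 (4363), RPS27 (3606) and RPS6 (3183). RPL22 was at the low end, with 92.5 CPM per kilobase. For very short coding sequences this scale overstates the level, since reads also fall on the untranslated parts.

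Among large subunit genes the steepest rise was that of RPL34, on chromosome 4 from 108620569 to 108630412. It was at 270.3, 261 and 260.2 CPM in the VC libraries against 592, 556 and 503 in the VHL-KO libraries. The VHL-KO samples were on average 2.09-fold above VC, with little spread within either group (log2 fold change 1.06, standard error 0.09, edgeR adjusted p = 2.31e-10). RPL13, on chromosome 16 from 89560677 to 89564542, was at 1743, 1984 and 1625 CPM in the VC libraries against 3646, 3549 and 3188 in the VHL-KO libraries. Its groups did not overlap and differed 1.94-fold (log2 fold change 0.96, standard error 0.09, edgeR adjusted p = 2.06e-09). RPL28, on chromosome 19 from 55385932 to 55403250, was at 679.8, 714 and 608 CPM in the VC libraries against 1417, 1249 and 1199 in the VHL-KO libraries, also without overlap (log2 fold change 0.95, standard error 0.09, edgeR adjusted p = 2.80e-09). RPL13A, which besides its place in the ribosome represses the translation of inflammatory mRNAs after interferon-γ, was at 1328, 1443 and 1267 CPM in the VC libraries against 2623, 2514 and 2278 in the VHL-KO libraries. Every VHL-KO sample exceeded every VC sample (log2 fold change 0.88, standard error 0.09, edgeR adjusted p = 4.67e-09). With offsets RPL13A, RPL13 and RPL28 stayed called but rose less. RPL13 was at 0.46 and RPL28 at 0.44 with offsets from the coding sequence, and RPL13A at 0.50 with GC and length offsets.

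Several genes with high levels per length rose as well. Their ranking includes the VHL-KO values and so favors genes that rose, and RPL39, just outside it, changed less. RPL8 was at 2973, 3348 and 2811 CPM in the VC libraries against 5150.3, 4765 and 4399 in the VHL-KO libraries, without overlap (log2 fold change 0.65, standard error 0.09, edgeR adjusted p = 8.10e-07), but with GC and length offsets its value was -0.10 and the call was lost. RPL38, which in mice is needed for the translation of Hox mRNAs, went from 944 ± 45.4 CPM in VC to 1344 ± 97.0 CPM in VHL-KO cells (log2 fold change 0.51, standard error 0.09, edgeR adjusted p = 1.54e-05), with 0.28 under GC and length offsets. RPL41 went from 419 ± 37.4 CPM in VC to 594 ± 46.3 CPM in VHL-KO cells (log2 fold change 0.50, standard error 0.09, edgeR adjusted p = 4.06e-05), but passed as lower with offsets from the coding sequence (-0.18). RPL37A went from 898 ± 31.1 CPM in VC to 1613 ± 118 CPM in VHL-KO cells (log2 fold change 0.84, standard error 0.09, edgeR adjusted p = 6.81e-09).

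The stalk recruits the GTPase translation factors to the ribosome, and its genes split. RPLP0, the base of the stalk and a common reference gene for quantitative PCR, was at 2888, 3226 and 2765 CPM in the VC libraries against 3152, 2946 and 2867 in the VHL-KO libraries. The groups overlapped and the test was not passed (log2 fold change 0.01, standard error 0.08, edgeR adjusted p = 0.897). By library size alone (-0.18) and with GC and length offsets (-0.33, also with the replicate block) it was called lower. The acidic proteins RPLP1 and RPLP2, which bind to it in pairs, rose. RPLP1 was at 1393, 1471 and 1257 CPM in the VC libraries against 2212, 2145 and 1863 in the VHL-KO libraries, with no overlap (log2 fold change 0.59, standard error 0.09, edgeR adjusted p = 3.59e-06), and at 0.28 with offsets from the coding sequence. RPLP2 was at 1116, 1249 and 965 CPM in the VC libraries against 1829.7, 1566 and 1468 in the VHL-KO libraries, again with no overlap (log2 fold change 0.55, standard error 0.10, edgeR adjusted p = 4.21e-05), although with GC and length offsets it passed as lower (-0.18). RPL12, also of the stalk's base, rose too (0.49 ± 0.08), a call lost with GC and length offsets (0.03). Scaled to the family, RPLP0 was lower (-0.44 ± 0.07), while RPLP1 (0.14 ± 0.07) and RPLP2 (0.09 ± 0.08) did not pass. The difference between these genes was not tested.

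RPL5 and RPL11 enter the ribosome together with the 5S RNA, and the free particle binds MDM2 and so stabilizes p53. RPL11 was at 766, 789 and 686 CPM in the VC libraries against 1307, 1212 and 1072 in the VHL-KO libraries. All its VHL-KO values were above the VC values (log2 fold change 0.68, standard error 0.09, edgeR adjusted p = 6.20e-07). RPL5 was at 571, 488 and 552 CPM in the VC libraries against 582, 609 and 521 in the VHL-KO libraries, where the groups overlapped (log2 fold change 0.09, standard error 0.09, edgeR adjusted p = 0.416). With offsets from GC content alone and from the coding sequence RPL5 passed the test too, while by library size alone its value was -0.11.

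Of 8 genes for proteins of the exit tunnel and its rim, through which the nascent chain leaves, 6 rose and 1 fell, with a median of 0.31, but with GC and length offsets 3 were higher and 2 lower (median 0.02). Of all members tested, 77.2% rose, and of all genes tested 28.5%. RPL39, a small protein lining the tunnel, went from 604 ± 44.3 CPM in VC to 719 ± 48.6 CPM in VHL-KO cells (log2 fold change 0.25, standard error 0.09, edgeR adjusted p = 0.0168), a call lost by library size alone, with GC and length offsets and without VHL-KO replicate 1. RPL17 and RPL26, also at the rim, were the lowest and the highest of this set, and both share exons with other genes. RPL3, close to the peptidyl transferase center, rose from 1945 ± 145 CPM in VC to 2732 ± 123 CPM in VHL-KO cells (log2 fold change 0.49, standard error 0.08, edgeR adjusted p = 2.16e-05), but by only 0.14 with GC and length offsets. RPL10, which joins the subunit late in its assembly, was at 1696, 1667 and 1530.4 CPM in the VC libraries against 1981, 1829 and 1769 in the VHL-KO libraries. Its groups did not overlap, yet it stayed just outside the threshold (log2 fold change 0.19, standard error 0.08, edgeR adjusted p = 0.0550) and passed it in 9 of the 17 alternatives. RPL22, which binds viral and cellular hairpin RNAs, rose from 28.8 ± 1.87 CPM in VC to 42.2 ± 1.33 CPM in VHL-KO cells (log2 fold change 0.55, standard error 0.11, edgeR adjusted p = 9.01e-05), and by more, 0.93, with offsets from GC content alone.

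**Figure D4:**
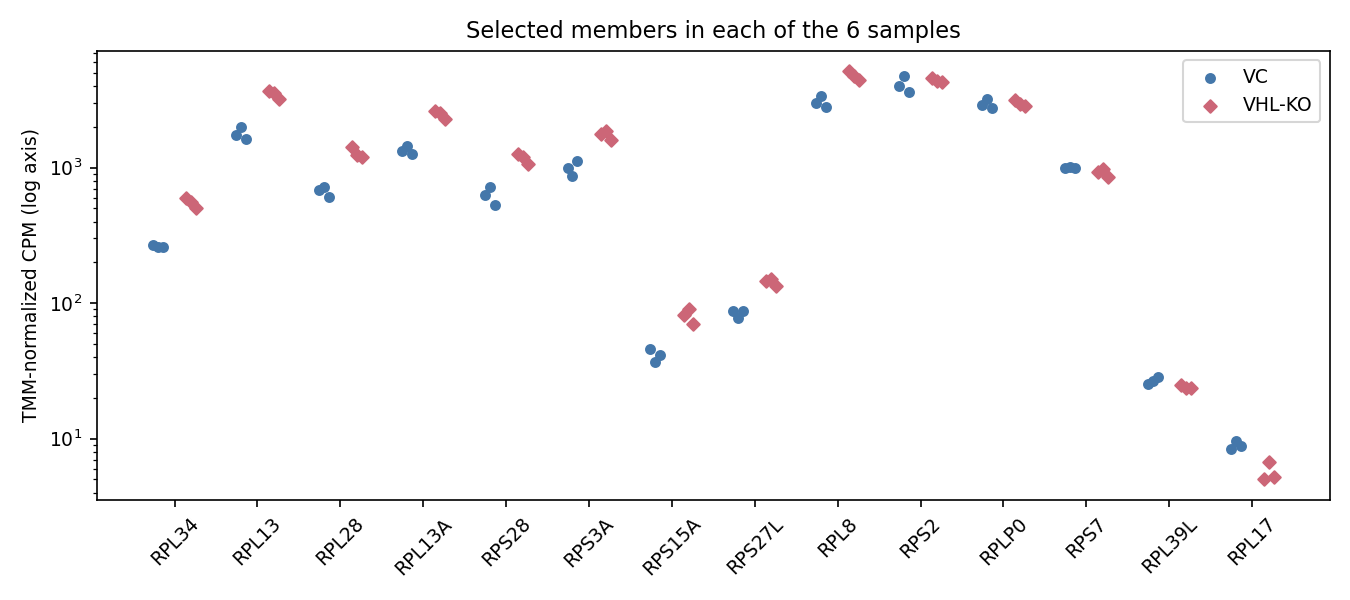
TMM-normalized CPM (log axis) of 14 members in each of the 3 VC (circles) and 3 VHL-KO samples (diamonds). RPL34, RPL13, RPL28, RPL13A, RPS28, RPS3A, RPS15A, RPS27L and RPL8 show separate groups with VHL-KO higher, RPS2 and RPLP0 overlap, and RPL17 lies lower in VHL-KO cells.

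In the small subunit the largest rises among members past the threshold were in RPS15A, RPS28, RPS3A and RPS27L. RPS28, a small protein of the head near the path of the mRNA, lies on chromosome 19 from 8321158 to 8323340 and was at 623, 722 and 533 CPM in the VC libraries against 1270.2, 1201 and 1068 in the VHL-KO libraries. The groups were far apart, 1.88-fold on average (log2 fold change 0.91, standard error 0.10, edgeR adjusted p = 3.00e-08), but with offsets from the GC content and length of the coding sequence the value was 0.08 and the call was lost. RPS3A was at 1001, 870.1 and 1111 CPM in the VC libraries against 1783, 1866 and 1586 in the VHL-KO libraries. It too had every VHL-KO sample above every VC sample (log2 fold change 0.81, standard error 0.09, edgeR adjusted p = 7.62e-08). RPS15A had few counts for its family, at 45.5, 36.9 and 41.7 CPM in the VC libraries against 81.2, 91.2 and 70.0 in the VHL-KO libraries, with a rise of 1.95-fold (log2 fold change 0.96, standard error 0.11, edgeR adjusted p = 5.56e-08). Per kilobase of coding sequence it was at 157 CPM, the lowest of the 30 small subunit genes compared, whose median was 1979.7. Whether its reads were counted fully was not tested.

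Of 14 genes for proteins of the small subunit head, the part that holds the transfer RNAs, 11 rose and none fell past the threshold, with a median of 0.43, but with GC and length offsets 3 were higher and 5 lower (median -0.04). Of all genes tested, 28.5% were higher and 31.2% lower. RPS3, which sits at the mRNA entry and also acts in DNA repair, went from 1707 ± 56.5 CPM in VC to 2296 ± 159.8 CPM in VHL-KO cells (log2 fold change 0.43, standard error 0.08, edgeR adjusted p = 0.000104). RPS19, the gene most often mutated in Diamond-Blackfan anemia, went from 678 ± 63.1 CPM in VC to 1138 ± 71.6 CPM in VHL-KO cells (log2 fold change 0.75, standard error 0.09, edgeR adjusted p = 1.16e-07), or 0.33 with offsets from the coding sequence. RPS20, the most abundant small subunit gene per length, was at 1919, 2049.8 and 1909 CPM in the VC libraries against 2470.1, 2394 and 2273 in the VHL-KO libraries. Its groups were separate but close (log2 fold change 0.28, standard error 0.08, edgeR adjusted p = 0.00476), and it lost its call by library size alone and stood at -0.05 with GC and length offsets. RPS27A, whose protein is made as a fusion to ubiquitin, did not pass (log2 fold change 0.13, standard error 0.08, edgeR adjusted p = 0.192), but was called higher in 3 alternatives, at most at 0.51 with offsets from GC content alone.

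RPS6, the substrate of the S6 kinases, was at 2021, 2072 and 1908 CPM in the VC libraries against 2870.5, 2872 and 2522 in the VHL-KO libraries. Every VHL-KO sample was higher (log2 fold change 0.46, standard error 0.08, edgeR adjusted p = 4.48e-05), and scaled to the family it stood at 0.00 ± 0.07. With offsets from GC content alone its value was 0.80. RPS2 had the largest share of any member in VC cells, and RPL8 in VHL-KO cells. The share of RPS2 was 0.440 ± 0.0508% of the VC and 0.413 ± 0.00997% of the VHL-KO libraries. This gene was at 4036, 4731 and 3609 CPM in the VC libraries against 4605, 4382 and 4271 in the VHL-KO libraries, where VC replicate 2 exceeded all VHL-KO samples (log2 fold change 0.10, standard error 0.09, edgeR adjusted p = 0.360). Without that replicate RPS2 passed the test as higher (0.23). It passed as lower with GC and length offsets (-0.57, also with the replicate block), with offsets from the coding sequence (-0.29) and with offsets from GC content alone (-0.28). The direction of RPS2 thus depended on the processing. RPSA, also known as the laminin receptor precursor, did not pass (log2 fold change 0.14, standard error 0.09, edgeR adjusted p = 0.151), but was called higher in 4 alternatives, among them upper quartile factors (0.26). RPS7, which binds MDM2, was at 1001, 1018 and 991 CPM in the VC libraries against 928, 969.9 and 859 in the VHL-KO libraries. Its VHL-KO samples were slightly below all VC samples, a difference that did not pass (log2 fold change -0.13, standard error 0.08, edgeR adjusted p = 0.193). RPS7 was called lower in 3 of the 17 alternatives: by library size alone (-0.32) and with GC and length offsets (-0.42), with or without the replicate block. In a family with a median of 0.49, its share of the ribosomal protein mRNA fell (-0.58 ± 0.07, edgeR adjusted p = 2.94e-06 on the family scale).

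Inherited loss of 1 copy of several of these genes causes Diamond-Blackfan anemia. Of 15 members on a list of such genes, 10 rose and none fell past the threshold, with a median of 0.49. With GC and length offsets 8 were higher and 3 lower (median 0.27). Of all members tested, 77.2% were higher, and of all genes tested 28.5%.

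Some members have a paralog that replaces them in certain tissues. RPL39L, enriched in the testis, went from 26.9 ± 1.43 CPM in VC to 24.1 ± 0.790 CPM in VHL-KO cells, every VHL-KO library just below every VC library (log2 fold change -0.16, standard error 0.11, edgeR adjusted p = 0.234), and on the family scale it was lower (-0.62 ± 0.13), while RPL39 stood at -0.21 ± 0.09. RPL39L was called lower in 4 alternatives, furthest at -0.54 with GC and length offsets. RPS27L, a p53 target, was at 87.4, 77.0 and 86.8 CPM in the VC libraries against 146, 149.8 and 133 in the VHL-KO libraries, a rise of 1.71-fold (log2 fold change 0.77, standard error 0.09, edgeR adjusted p = 1.35e-07). Its partner RPS27 rose as well, from 690.3 ± 13.5 CPM in VC to 1127 ± 83.9 CPM in VHL-KO cells (log2 fold change 0.71, standard error 0.08, edgeR adjusted p = 1.18e-07). With GC and length offsets RPS27L was at 1.24 and RPS27 at 0.27. Per kilobase RPS27L was at 450.1 CPM and RPS27 at 3606, and RPL39L at 166 and RPL39 at 4324. RPL3L, a muscle gene, and RPL10L, a testis gene, were at 0 in every sample, which allows up to 3 counts, whereas RPL3 and RPL10 had means of 64651 and 49297 counts. RPS4X, on the X chromosome, went from 1202 ± 35.1 CPM in VC to 1751 ± 108 CPM in VHL-KO cells (log2 fold change 0.54, standard error 0.08, edgeR adjusted p = 4.46e-06). Of 4 paralogs outside the symbol rule, RPL22L1 (0.48 ± 0.10) and RPL36AL (0.28 ± 0.10) rose and RPL26L1 (-0.36 ± 0.10) and RPL7L1 (-0.60 ± 0.09) fell. RPL7L1 acts in ribosome assembly. RPL36AL lost its call by library size alone and without VHL-KO replicate 1, and RPL26L1 with offsets from GC content alone. With GC and length offsets RPL22L1 was at 0.79 and RPL7L1 at -0.27.

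Reads of some members may not have been counted fully. Counting with HTSeq can leave out reads that fall in more than 1 gene, and 96.9% of the RPL17 transcript, 84.0% of RPS10, 65.3% of RPL26 and 43.8% of RPL36A lie in exons of another coding gene on the same strand in GENCODE release 44. For RPL17, RPS10 and RPL36A these include the readthrough genes RPL17-C18orf32, RPS10-NUDT3 and RPL36A-HNRNPH2, which had 0 counts in all samples. These members had mean counts of 216, 19.3, 565 and 185, against a lowest mean of 737 among tested members with at most 40% of the transcript overlapped. RPL17 was at 8.34, 9.62 and 8.85 CPM in the VC libraries against 5.01, 6.72 and 5.25 in the VHL-KO libraries, lower in every VHL-KO sample (log2 fold change -0.66, standard error 0.17, edgeR adjusted p = 0.00168), and RPL26 at 16.6, 12.5 and 14.1 CPM in the VC libraries against 28.7, 32.5 and 20.9 in the VHL-KO libraries, higher in every one (log2 fold change 0.92, standard error 0.15, edgeR adjusted p = 8.88e-06). With offsets from GC content alone RPL17 was at -0.41. These values rest on few reads and are uncertain. RPS15A and RPL22, with 9.90% and 11.2% of the transcript in exons of another coding gene, were also low per kilobase of coding sequence, at 157 and 92.5 CPM. Whether their reads were counted fully was not tested. Without all 5 members above 40%, 36 large subunit genes were higher and none lower by edgeR, and 23 small subunit genes were higher and none lower, with medians of 0.53 and 0.46.

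Ribosomal protein genes have many processed pseudogenes of near-identical sequence. Only reads with a single genomic location were kept, so reads that fit a gene and its copies equally well are missing from all of these counts, and members with many copies are uncertain. Of 1307 genes named as ribosomal protein pseudogenes, 510 had a count. Together they went from 0.0859 ± 0.00201% of counts to 0.112 ± 0.00794%, without overlap of the groups. Of the 153 with enough reads to be tested, 60 were higher and 2 lower (median 0.74). That is 39.2% and 1.31%, against 28.5% and 31.2% of all genes tested.

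The members are scattered over the genome, and their place was not part of the rule. Chromosome 19 holds 12 of those tested, all called higher, with values from 0.45 to 0.95 and a median of 0.74. The other 1154 genes tested on chromosome 19 had a median of 0.24, with 38.6% called higher, and this median was the highest among the chromosomes with at least 4 members. On chromosome 12, 1 of 4 members was higher, with a median of 0.03, where the other 932 genes had a median of -0.12 and 26.1% were called higher. Over all chromosomes it was 28.5% of genes tested. The part of the chromosome in these values was not tested. Across the 79 members, which share libraries and are not independent, the log2 fold change had a Spearman correlation of 0.08 with the GC content of the transcript, -0.26 with the coding length and 0.21 with the level per kilobase. Small nucleolar RNAs, which guide the modification of ribosomal RNA, lie inside 28 of the members. Of these host genes 21 were higher and 1 lower (median 0.42), and of the other 51 members tested 40 were higher and 0 lower (median 0.50). These are 75% and 78.4% higher, both near the 77.2% of all members, where 28.5% of all genes tested were higher.

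FAU and RACK1 encode ribosomal proteins that the symbol rule leaves out, and both moved with most members. FAU, the precursor of RPS30, went from 113 ± 9.74 CPM in VC to 201 ± 17.9 CPM in VHL-KO cells (log2 fold change 0.83, standard error 0.10, edgeR adjusted p = 6.95e-08). RACK1, a scaffold on the small subunit head, changed by 0.33 ± 0.09, also past the threshold. FAU lost its call with GC and length offsets, where RACK1 was at -0.03, and RACK1 also by library size alone.

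Genes that build the ribosome went the other way. Of 45 assembly factors 1 rose and 37 fell, with a median log2 fold change of -0.71 that stayed below 0 in all 17 alternatives. NOLC1, a nucleolar chaperone of small nucleolar ribonucleoproteins, was at 278, 291 and 288 CPM in the VC libraries against 92.2, 97.6 and 109.9 in the VHL-KO libraries. The groups were far apart, with VHL-KO the lower (log2 fold change -1.52, standard error 0.09, edgeR adjusted p = 9.94e-13). UTP20, a component of the small subunit processome, went from 59.1 ± 4.74 CPM in VC to 18.2 ± 1.72 CPM in VHL-KO cells (log2 fold change -1.70, standard error 0.11, edgeR adjusted p = 5.51e-12), or -1.02 with offsets from the coding sequence. Of 12 genes of RNA polymerase I and its factors, which transcribe the ribosomal RNA, 1 rose and 7 fell. Their median was -0.45, or -0.14 with offsets from the coding sequence. They include TAF1B (-1.20 ± 0.18) and RRN3 (-1.08 ± 0.15), which bring the polymerase to its promoter, at -0.76 and -0.56 with GC and length offsets. Of all genes tested 28.5% were higher and 31.2% lower, with a median of -0.01.

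Most factors that work on the ribosome did not rise. Among 34 initiation factors, 3 rose and 17 fell. Their median was -0.28, which turned to 0.04 with offsets from the coding sequence and below 0 in the other 16 alternatives. EIF4E, the cap-binding protein, went from 43.0 ± 10.1 CPM in VC to 17.1 ± 0.422 CPM in VHL-KO cells (log2 fold change -1.33, standard error 0.14, edgeR adjusted p = 1.11e-08), and EIF1AX, which acts in scanning, from 86.2 ± 14.7 CPM in VC to 29.2 ± 0.554 CPM in VHL-KO cells (log2 fold change -1.56, standard error 0.11, edgeR adjusted p = 2.81e-11). With GC and length offsets these were -0.82 and -0.92. Of 8 tested elongation factors and other genes known for a TOP start, 2 rose and 3 fell, with a median of -0.05 that was above 0 with upper quartile factors (0.06), with offsets from the coding sequence (0.03) and without VC replicate 3 (0.01). These are 25% and 37.5%, beside 28.5% and 31.2% of all genes tested. Those that fell included HNRNPA1 (-0.84 ± 0.08), an RNA-binding protein, and PABPC1 (-0.64 ± 0.08), the poly(A)-binding protein. Both fell less with GC and length offsets (-0.41 and -0.41), and PABPC1 was at -0.22 with offsets from the coding sequence. Genes known for a TOP start thus did not all rise. EEF1G, also on that list, was listed at 0 in every sample. Reads with several locations were not kept, and counting can leave out reads that fall in several genes. Whether either applied to EEF1G was not tested, so its 0 does not show that the gene was silent.

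Of 13 noncoding host genes of small nucleolar RNAs, several of which are themselves TOP transcripts, 8 rose and 2 fell. Of all genes tested, 28.5% were higher and 31.2% lower. The median of these host genes was 0.60, or 0.33 with GC and length offsets. ZFAS1 went from 14.8 ± 2.37 CPM in VC to 42.4 ± 5.11 CPM in VHL-KO cells (log2 fold change 1.51, standard error 0.13, edgeR adjusted p = 4.72e-10) and SNHG1 from 48.8 ± 6.57 CPM in VC to 22.0 ± 2.28 CPM in VHL-KO cells (log2 fold change -1.15, standard error 0.12, edgeR adjusted p = 1.48e-08). Among 10 regulators of ribosomal protein synthesis 3 rose and 5 fell, 30% and 50%. The part that rose was near the 28.5% of all genes, and the part that fell was above their 31.2%. The genes given next were among those that fell. MYC, which drives many genes of ribosome production, was at 202, 222 and 205 CPM in the VC libraries against 118, 111 and 125 in the VHL-KO libraries. It was lower in every VHL-KO sample (log2 fold change -0.82, standard error 0.09, edgeR adjusted p = 2.41e-08), as was EEF2K, the kinase that restrains elongation (log2 fold change -0.85, standard error 0.15, edgeR adjusted p = 3.15e-05). Whether any of these had a part in the change of the ribosomal protein mRNAs was not tested.

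**Figure D5:**
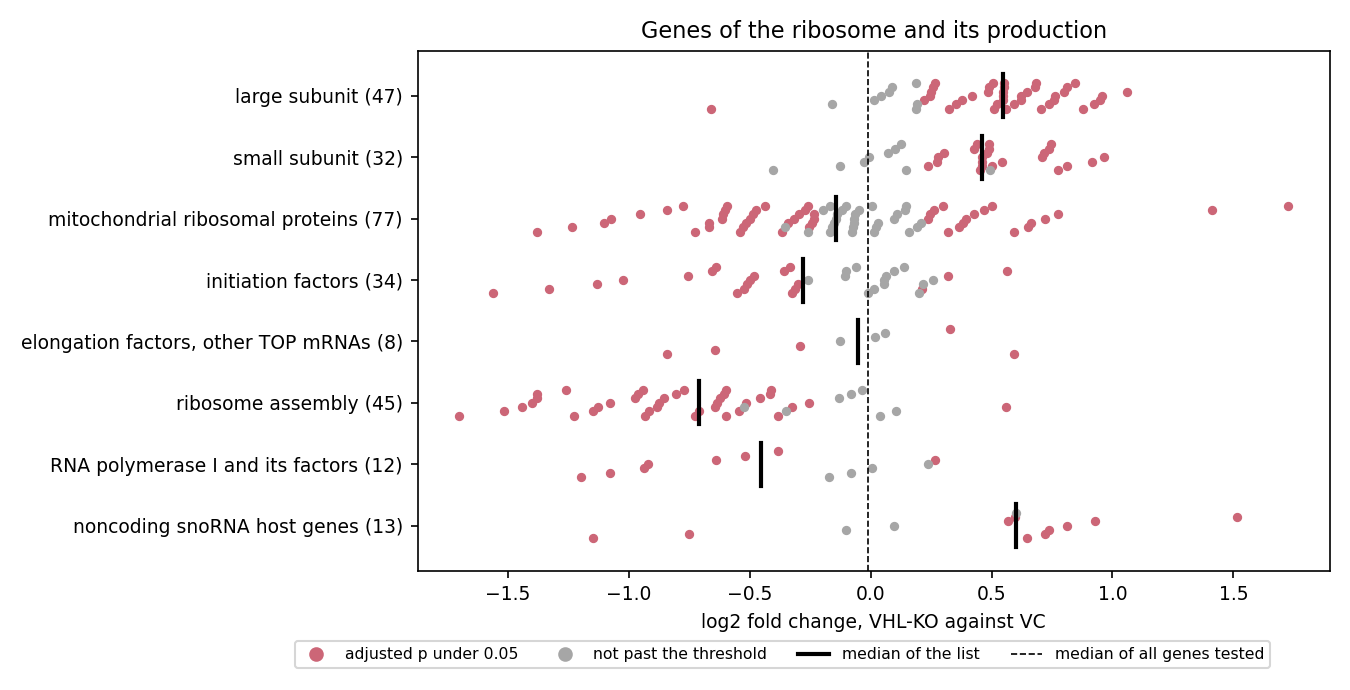
Log2 fold change, VHL-KO against VC, of the tested large and small subunit genes, of mitochondrial ribosomal protein genes and of genes of translation and ribosome production, 1 point per gene, with the number of genes in brackets. Thick bars are list medians, 0.55 for the large subunit and -0.71 for ribosome assembly, and the dashed line is the median of all genes tested.

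The proteins of the mitochondrial ribosome, encoded in the nucleus by another gene family, did not show the rise. Of 78 such genes 77 were tested, of which 18 were higher and 31 lower, with a median of -0.14 that was below 0 in all 17 alternatives. That is 23.4% higher and 40.3% lower, where 28.5% of all genes tested were higher and 31.2% lower. Their median ranged from -0.33 by library size alone to -0.03 with upper quartile factors. They took 0.530, 0.533 and 0.526% of the VC libraries and 0.435, 0.444 and 0.418% of the VHL-KO libraries. Here every VHL-KO sample was below every VC sample, while the cytosolic members went from 7.80 ± 0.189% to 9.37 ± 0.530%. The difference between the families was not tested.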

How the data were processed

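The values were gene counts that the authors deposited for 3 VC and 3 VHL-KO libraries of Trizol-extracted RNA sequenced on a NovaSeq instrument. The submitters' processing notes name Trim Galore with cutadapt, STAR on GRCh38.p13, SAMtools to keep reads with a single location, and HTSeq. Annotation release, strandedness, counting mode and tool versions were not given in the sources used here. Genes with at least 10 reads in any library were tested with edgeR 4.0.16 in R 4.3.3 (TMM factors, quasi-likelihood F test, Benjamini-Hochberg adjustment, threshold 0.05). A second fit scaled each library to its summed member counts. Summaries and plots used Python 3.11.15, pandas 2.3.3 and matplotlib 3.10.9, and transcripts, GC content and overlaps came from GENCODE release 44. The fit was tested on simulated data.

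Genes were named by a rule written in advance, though with earlier results of these data known: VHL, members with the highest counts per kilobase, the largest changes in each fit among members with a mean of at least 100 counts, paralogs, members with known roles, and the largest changes in each gene list. RPS10 and RPL36A, for their overlap with other genes, RPL12, for its place in the stalk, and EEF1G, at 0 counts, were named outside it after their values were seen. Cell type markers were fixed by name together with the rule. Results of some genes are not reported here, although the counts and medians include them. Members and lists were chosen with the same knowledge. Alternatives were DESeq2 1.42.0, RLE and upper quartile factors, library size alone, other filters, a replicate block, GC and length offsets (natural splines with 5 degrees of freedom) and leaving out each library. Offsets from the coding sequence, offsets from GC content alone and counts without the 5 overlapped members were added after seeing the data. Total counts were 22628246 to 34881739 per library, and by counting error alone a gene at 0 may hold up to 3 counts. Between replicates of a group, the chi-square per degree of freedom was 6.43 to 35.3, where counting error alone would give about 1.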

Additional observations from a re-analysis of the deposited data

How the results depend on the processing

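Of the alternatives for named genes, 858 values kept direction and side of the threshold. In the same direction 17 lost the call and 30 gained it, and 30, of 12 genes, changed direction. Those that changed direction are counted there alone, although some of them also lost or gained the call. The largest departures named in the family-scaled test kept direction and side of the threshold under every alternative run for it. Other members given on that scale, among them RPLP0 and RPL39, were not run under these alternatives. The medians of the large and small subunit were 0.66 and 0.57 with upper quartile factors, 0.35 and 0.27 by library size alone, 0.28 and 0.0191 with GC and length offsets, 0.28 and 0.0510 with these and the replicate block, and 0.35 and 0.24 with offsets from the coding sequence. Lower large and small subunit genes numbered 3 and 4 by library size alone, 8 and 10 with GC and length offsets, 8 and 10 with the replicate block added, and 3 and 3 with offsets from the coding sequence. Of all genes tested, 6740, 5417, 5441 and 4866 were lower in these fits, in the same order. Offsets from GC content alone gave 1 lower small subunit gene, and 0 large subunit genes were lower by edgeR without the overlapped members. Higher small subunit genes numbered 14 with GC and length offsets and 14 with the replicate block added, where 5068 and 5013 of all genes tested were higher. The share gained was 1.45 and 0.602 points for the large and small subunit without mitochondrial genes in the total, and 1.72 and 0.742 points without the 20 most abundant other genes.

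Log2 fold changes that changed direction were these, of which RPL41, RPLP2 and the values of RPS2 with offsets passed as lower, as did RPLP0 by library size alone and with GC and length offsets. By library size alone: RPS2 -0.0913, RPL10 -0.00378, RPLP0 -0.18, RPL5 -0.11, RPS27A -0.0675 and RPSA -0.0485. With GC and length offsets: RPL8 -0.0981, RPS20 -0.0490, RPS2 -0.57, RPLP0 -0.33, RPLP2 -0.18, RPL5 -0.0152, RPSA -0.0712 and RACK1 -0.0272. With these offsets and the replicate block: RPL8 -0.0983, RPS20 -0.0469, RPS2 -0.57, RPLP0 -0.33, RPLP2 -0.19, RPL5 -0.0155, RPSA -0.0707 and RACK1 -0.0279. With offsets from the coding sequence: RPL41 -0.18, RPS2 -0.29 and RPS7 0.0165. With offsets from GC content alone: RPS2 -0.28 and RPLP0 -0.10. RPLP0 was at -0.0244 without a filter on low counts. Leaving out single libraries, RPLP0 lay below 0 when VC replicate 3 was left out, or VHL-KO replicate 1, and ranged from -0.0185 to 0.0983. The cause was not tested.

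Leaving out each library in turn, 9228 to 10377 genes were called, 4397 to 4986 higher and 4831 to 5391 lower. Large subunit calls numbered 34 to 42 (33 to 41 higher, 1 lower each time) and small subunit calls 21 to 25 (21 to 25 higher, 0 lower by edgeR each time). The medians were 0.47 to 0.57 and 0.42 to 0.52, the shares gained 0.990 to 1.33 and 0.379 to 0.539 points, and the rise in the ratio 0.112 to 0.140. On the family scale 36 to 49 members were called (18 to 25 higher, 17 to 26 lower). The link between libraries of equal replicate number was too weak to treat them as pairs. Correlations of equal numbers were 0.0627, -0.000449 and 0.0283, and of unequal numbers -0.0517 to 0.0170. With the replicate block all the same, the medians were 0.55 and 0.46. Offsets from the coding sequence or GC content alone, and leaving out the overlapped members, were chosen after seeing the data. Depth limits what can be said of RPL3L, RPL10L and the markers of other cells, which were at or near 0, and of RPS10, with a mean of 19.3 counts. The number of clones behind the VHL-KO libraries is not known, so no value here separates the loss of VHL from a property of the clone. Reads with several locations or in several genes were not counted, which affects members with pseudogenes or overlapping genes to an unknown degree.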
